A study of Homo sapiens with 13 samples.

Results

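The spacing comparison covered 415 designed enhancer arrays of 2 or more transcription factor motifs, each measured once with 10 bp and once with 5 bp between neighbouring motifs. They were chosen as the designs present in both episomal libraries with at least 5 named barcodes in each, counting only barcodes with at least 5 plasmid reads. They are 415 of the 442 designs that both libraries hold and of 542 designs in either; the 100 designs seen only with 5 bp spacers all hold 3 motifs and were not analysed here. Of the 415 arrays, 91 repeat a single motif (homotypic) and 324 mix a pair of motifs. The remaining 27 shared designs have no motif neighbour and served as controls for the 2 libraries: 24 arrays of 1 motif (8 motifs in 3 flanking contexts) and 3 constructs named rd, 1 per context, which carry none of the 8 motif names.

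All libraries came from wild-type MEC1, a long-cultured human B cell line started from chronic lymphocytic leukaemia, with no drug or other agent added. The 10 bp group comprised 2 mRNA libraries from duplicate transfections and 1 plasmid DNA library, and so did the 5 bp group. Cells were transfected with plasmid pools whose inserts carried random 12 bp barcodes and were harvested 24 h later, so the reporters were episomal and not in chromosomes. Arrays are described by their motif names in order, and the letters of motifs, spacers and contexts were not used here.

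In STARR-seq a candidate enhancer sits inside the transcript of a reporter, and the amount of mRNA that carries it reads out its strength. Transcription factors bind short DNA motifs, and the distance between neighbouring motifs sets whether the bound proteins lie on the same face of the helix and whether they can touch. NFKB factors bind DNA as dimers and drive inflammatory and survival genes in B cells, IRF factors drive interferon responses and B cell differentiation, and PU1 and IRF proteins are known to bind closely spaced composite sites. RUNX3 and PU1 act in blood cell development, MEF2 in B cell and muscle gene expression, FOXO in quiescence and survival, MYC in growth, and CTCF in chromatin loops and insulation.

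Activity is given here as the log2 ratio of a design's share of mRNA reads to its share of plasmid DNA reads, scaled by TMM (a trimmed mean over all shared designs), so 0 marks equal scaled shares and 1 unit is a doubling. The spacing difference is activity at 10 bp minus activity at 5 bp, tested with edgeR across all 442 designs. A design passed with a Benjamini-Hochberg adjusted p under 0.05. Each spacer was its own plasmid pool with its own transfections, so spacing and pool cannot be told apart within this difference, and its p-values measure the spread between duplicate transfections of these pools only. A pair of further differences therefore set each array against designs that have no spacer between motifs. The first subtracts the mean of the 9 controls (rd and 8 arrays of 1 motif) of the same context. The second subtracts the copy-weighted mean of the 1-motif arrays of the array's own motifs in the same context, which also removes any library scaling, and was tested with limma across the 415 arrays. The sources do not say whether the inserts around a single motif or an rd sequence were laid out alike in both pools. If they were not, these 2 differences also hold that change of layout.

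The 6 libraries held between 3850658 and 4563359 reads, of which between 16.6% and 18.5% belonged to barcodes without a design name and were left out. The arrays rested on a median of 398 barcodes at 10 bp and 304 at 5 bp, with a lowest of 12 and 5; 12 arrays had fewer than 20 barcodes in either library, and no shared design had fewer than 5. Only barcodes with at least 1 read in every library of their table were listed, which can raise the level of weak arrays at either spacing. The pools shared 11712 barcodes where random overlap of their barcode numbers gives 10911, and 15 of the 8334 barcodes named in both carried the same design. Activity correlated at r = 0.998 between the 10 bp replicates and at r = 0.996 between the 5 bp replicates across designs.

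The controls themselves differed between the libraries. The rd construct of context 1 had activities of -0.06 and -0.19 at 10 bp, against -0.71 and -0.70 at 5 bp. The rd construct of context 2 had 0.29 and 0.20 at 10 bp, against -0.50 and -0.64 at 5 bp, and that of context 3 had -0.26 and -0.38 at 10 bp, against -1.03 and -0.98 at 5 bp. All 3 were higher in the 10 bp library, by 0.58, 0.81 and 0.69 in contexts 1 to 3. The 1-motif arrays had a median difference of 0.44 in context 1, -0.24 in context 2 and 1.26 in context 3. They spanned 0.04 to 1.05, -0.77 to -0.05 and 0.18 to 2.58 in those contexts, and of all 24, 11 passed as higher and 5 as lower. Every 1-motif difference was thus negative in context 2 and positive in contexts 1 and 3, whereas the rd construct was higher at 10 bp in context 2 as well. The SD of the difference over the 24 arrays of 1 motif was 0.83, beside 0.97 over the 415 arrays with 2 or more. After subtraction of the context controls these SDs were 0.55 and 1.00. Across designs, 10 bp and 5 bp activities correlated at r = 0.64 for the 24 arrays of 1 motif and at r = 0.74 for the 415 arrays (a description over designs that share libraries).

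Most arrays differed between the spacings by more than their replicates. Of the 415 arrays, 145 were higher and 177 lower with 10 bp spacers, beside 36.0% higher and 41.2% lower (77.1% in either direction) of all 442 designs tested. On simulated counts the TMM fit was shifted towards lower values and passed more unchanged designs than its threshold allows, so TMM calls here carry that limit. The difference ranged from -3.13 to 2.38 with a median of -0.08, and its median size was 0.57, against a median replicate SD of 0.04 in each library. Both replicates of a spacer were divided by the same plasmid DNA library, so this SD and the replicate overlap hold no plasmid DNA error. Both 10 bp replicates lay above both 5 bp replicates for 184 arrays and below them for 212, and the replicates overlapped for 19. Of all 442 designs 45.5% lay above and 49.8% below in this sense, 95.2% together, so the share among the arrays is near that of all designs. The split followed the scaling. Against the controls of the same context 81 arrays were higher and 261 lower (20.1% and 61.5% of all 442, 81.7% in either direction), because these controls shifted the difference by -0.48 in context 1, 0.16 in context 2 and -1.17 in context 3. Over their own 1-motif arrays 76 were higher and 243 lower (18.3% and 58.6% of 415, 76.9% in either direction), with a median of -0.48. Scaled on the 3 rd constructs alone, 61 were higher and 289 lower. In all 3 comparisons 58 of the 415 arrays were higher and 152 were lower. Meanwhile 40 arrays passed in opposite directions by TMM and by context controls, and 46 by TMM and over their 1-motif arrays.

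NFKB arrays carried the largest falls with 10 bp spacers of the 8 homotypic groups. All 12 arrays of 2 to 5 NFKB motifs were lower at 10 bp by TMM and by context controls, and 11 of 12 were lower over their 1-motif arrays, with none higher. The median difference was -2.39, a 5.25-fold size, against -2.31 by context controls and -2.62 over 1-motif arrays. Median activity over the 12 arrays was 0.46 ± 0.11 at 10 bp and 2.59 ± 0.03 at 5 bp (SD, n = 2 mRNA libraries each).

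The NFKB difference was smaller with 2 motifs than with more. The 2-motif array had activities of 1.33 and 1.35 at 10 bp in context 1, against 1.76 and 1.77 at 5 bp, a difference of -0.42 (SE 0.07). It stood at 0.76 and 0.74 at 10 bp in context 2, against 1.65 and 1.54 at 5 bp, and at 1.17 and 1.20 at 10 bp in context 3, against 1.75 and 1.77 at 5 bp. With 2 copies, then, arrays of both spacings were active and the 10 bp values lay below the 5 bp values in each context. With 3 copies the array of context 3 fell to -0.56 and -0.48 at 10 bp, against 2.63 and 2.60 at 5 bp. Its difference of -3.13 (SE 0.07, adjusted p = 2.54e-15) was the lowest of all 415 arrays, and its barcodes numbered 663 at 10 bp and 1268 at 5 bp. In contexts 1 and 2 the 3-motif arrays differed by -1.89 and -2.42.

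Arrays of 4 NFKB motifs stood at -0.41 and -0.23 at 10 bp in context 1, against 2.59 and 2.54 at 5 bp. They differed by -2.88, -2.37 and -2.90 in contexts 1 to 3. Arrays of 5 motifs stood at 0.33 and 0.50 at 10 bp in context 1, against 3.38 and 3.25 at 5 bp, and differed by -2.90, -2.00 and -2.48. The median activity over contexts was thus 1.18, -0.17, -0.15 and 0.51 for 2, 3, 4 and 5 motifs at 10 bp, against 1.76, 2.41, 2.70 and 2.98 at 5 bp. The single NFKB motif moved otherwise, with differences of 1.05, -0.77 and 1.73 in contexts 1 to 3. Over that 1-motif array, the 3-motif array of context 3 differed by -4.86 (SE 0.13, adjusted p = 1.32e-09 by limma). The 2-motif array of context 2 differed by -0.08 (adjusted p = 0.57) and was the array of the 12 that did not pass.

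MYC and FOXO arrays were also lower with 10 bp spacers. All 12 MYC arrays were lower by TMM with a median of -1.06 (2.09-fold size), 11 by context controls (median -1.66) and 11 over their 1-motif arrays (median -1.26). The difference was larger with more copies: -0.44 and -0.80 in the median with 2 and 3 motifs, and -1.64 and -1.58 with 4 and 5. The array of 5 MYC motifs in context 2 had -2.55 and -2.73 at 10 bp, against -0.22 and -0.42 at 5 bp, a difference of -2.32 (SE 0.12, adjusted p = 5.01e-11). The 1-motif MYC arrays differed by 0.22, -0.24 and 0.18 in contexts 1 to 3, so without a neighbour the MYC motif was not lower in each context. Of 12 FOXO arrays 11 were lower and 1 higher by TMM, with a median of -0.60, and all 12 were lower by context controls. The FOXO array furthest from 0 was that of 5 motifs in context 1, at -1.07 in both replicates at 10 bp, against 0.21 in both at 5 bp (-1.28, SE 0.10, adjusted p = 6.44e-09). The exception was the 2-motif array of context 3, which differed by 0.31 by TMM (adjusted p = 0.00445), -0.86 by context controls and -1.32 over its 1-motif array, which itself differed by 1.63.

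IRF arrays were the most active homotypic group with 10 bp spacers and stood near 0 with 5 bp spacers. All 12 were higher at 10 bp by TMM (median 1.89, a 3.70-fold size) and by context controls (median 1.21). Median activity was 1.56 ± 0.07 at 10 bp and -0.23 ± 0.15 at 5 bp (SD, n = 2 mRNA libraries each). In context 1 the array of 2 IRF motifs had activities of 2.32 in both replicates at 10 bp, against 0.45 in both at 5 bp (difference 1.87, SE 0.08, adjusted p = 2.39e-12). In context 2 it had 2.11 and 2.15 at 10 bp, against 0.15 and 0.29 at 5 bp. The array of 3 motifs in context 3 had 2.29 and 2.34 at 10 bp, against -0.13 and 0.00165 at 5 bp, and its difference of 2.38 (SE 0.08, adjusted p = 2.51e-13) was the highest of the homotypic arrays. No IRF array overlapped between the spacings, as held for 95.2% of all 442 designs. The lowest IRF difference was 1.02, for 5 motifs in context 2.

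How far the IRF rise went beyond that of a single IRF motif depended on the context. The 1-motif array differed by 0.94, -0.11 and 2.58 in contexts 1 to 3. Over it, all 4 longer arrays of context 2 were higher (differences of 2.02, 1.85, 1.84 and 1.14 for 2 to 5 motifs), and 3 of 4 were higher in context 1 (0.94, 0.69 and 1.06 for 2 to 4 motifs, with 0.43 and an adjusted p of 0.0515 by limma for 5). In context 3 none was higher: the differences were -0.21, -0.20, -0.61 and -0.21, and the array of 4 motifs passed as lower. The single IRF motif of context 3, which has no neighbour, thus differed between the libraries by more than each of the 4 arrays there. By copy number the median IRF difference was 1.91, 1.74, 1.97 and 1.37 for 2 to 5 motifs.

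RUNX3 arrays were higher with 10 bp spacers by a smaller amount. All 12 were higher by TMM, with a median of 1.15 (2.21-fold size) and a range from 0.46 to 1.93. By context controls 8 were higher and 1 lower, and over their 1-motif arrays 9 were higher and none lower, with a median of 0.67. The 3-motif array of context 3 had 0.87 and 0.88 at 10 bp, against -1.03 and -1.07 at 5 bp (difference 1.93, SE 0.07, adjusted p = 6.5e-13). In context 2 the arrays of 3 and 4 motifs differed by 1.58 and 2.22 over the 1-motif array, while in context 1 the arrays of 3 and 4 motifs differed by -0.04 and -0.0033 and did not pass. At either spacing the level was lower with 4 and 5 motifs: the median activity was 0.16, 0.33, -0.61 and -1.13 for 2 to 5 motifs at 10 bp, against -0.59, -0.82, -1.77 and -2.05 at 5 bp.

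MEF2, PU1 and CTCF arrays gave fewer calls by TMM, and the sign of the MEF2 and CTCF medians depended on the scaling or controls. Of 12 MEF2 arrays 4 were higher and 1 lower by TMM (median 0.35), 3 higher and 2 lower by context controls (0.09), and 4 higher and 4 lower over their 1-motif arrays (0.22). Scaled on the rd constructs the MEF2 median turned to -0.35. The 4 lower calls over 1-motif arrays were the 4 arrays of context 3, where the single MEF2 motif was 1.90 higher in the 10 bp library. The MEF2 array with the largest difference, 5 motifs in context 3, had -1.02 and -1.25 at 10 bp, against -2.37 and -2.62 at 5 bp (1.34, adjusted p = 0.000136), on 37 and 9 barcodes. It did not pass by context controls (0.17, adjusted p = 0.557). Of 11 PU1 arrays 1 was higher and 3 lower by TMM (median -0.07). By either set of controls 1 was higher and 7 lower, with medians of -0.81 by context controls and -0.62 over 1-motif arrays. These lower counts are near the shares of all designs tested, 61.5% lower by context controls and 58.6% over 1-motif arrays. The largest was that of 3 motifs in context 1, at -2.02 and -2.12 at 10 bp, against -1.44 and -1.56 at 5 bp (-0.57, adjusted p = 0.000238).

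CTCF arrays were the least active at both spacings, with a median activity of -2.40 ± 0.03 at 10 bp and -2.33 ± 0.02 at 5 bp (SD, n = 2 mRNA libraries each). Of 8 arrays 1 was higher and 2 lower by TMM, with a median of 0.01. By context controls 2 were higher and 5 lower, near the 20.1% and 61.5% of all 442 designs. The higher one, 4 CTCF motifs in context 1, had -1.004 and -1.26 at 10 bp, against -2.10 and -2.65 at 5 bp (1.20, adjusted p = 0.000181), and rested on 12 and 22 barcodes. The same array in context 2 was lower, by TMM at -0.71. Of the barcodes of homotypic CTCF arrays, 40.1% at 10 bp and 47.1% at 5 bp stood at a single mRNA read, the lowest number a listed barcode can have, against 1.56% at 10 bp and 12.7% at 5 bp for IRF and 5.35% at 10 bp and 1.29% at 5 bp for NFKB. At 10 bp and 5 bp these shares were 8.86% and 22.3% for RUNX3, 20.9% and 14.4% for MYC, and 23.3% and 26.7% for PU1. They were 15.4% and 12.7% for FOXO, and 11.3% and 15.3% for MEF2. This floor limits how far a lower level of CTCF arrays could be measured at this depth. It bears on the other groups by their smaller shares, unequally between the spacings.

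The order of the 8 homotypic groups differed between the spacings. With 10 bp spacers it ran IRF (1.56), NFKB (0.46), RUNX3 (-0.08), FOXO (-0.82), MEF2 (-0.83), MYC (-1.45), PU1 (-1.49) and CTCF (-2.40), as median activities. FOXO and MEF2, and MYC and PU1, were no further apart than their replicate SDs of 0.03 and 0.09. With 5 bp spacers it ran NFKB (2.59), FOXO (-0.22), IRF (-0.23), MYC (-0.26), RUNX3 (-1.32), MEF2 (-1.35), PU1 (-1.58) and CTCF (-2.33). There FOXO, IRF and MYC lay within the replicate SD of 0.15 for IRF, and RUNX3 and MEF2 within that of 0.04 for RUNX3.

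The spacing difference was less spread over mixed arrays than over homotypic ones. Of 324, 114 were higher and 136 lower by TMM with an SD of 0.85 over arrays, beside 31 higher and 41 lower of 91 homotypic arrays with an SD of 1.32. The mixed shares are near the 36.0% higher and 41.2% lower of all 442 designs. By context controls 55 mixed arrays were higher and 211 lower, beside 20.1% and 61.5% of all 442 designs. For 318 mixed arrays the homotypic arrays of both motifs with the same length and context had been measured. The mixed difference correlated at r = 0.55 with the copy-weighted mean of the homotypic differences (a description over arrays that share libraries and homotypic arrays), and the median departure from that mean was -0.02, with 157 above and 161 below.

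The 6 pairs with the highest median differences all held IRF. All 6 arrays of IRF with RUNX3 were higher at 10 bp by TMM, by context controls and over 1-motif arrays, with medians of 1.49, 1.05 and 0.65. IRF followed by RUNX3 in context 3 had 0.97 and 1.06 at 10 bp, against -1.25 and -1.21 at 5 bp (2.25, SE 0.09, adjusted p = 1.08e-12). RUNX3 followed by IRF in the same context had 1.34 and 1.42 at 10 bp, against -0.65 and -0.63 at 5 bp (2.02, adjusted p = 1.54e-12). Both orders were thus higher in that context, and the pair's median lay beside a homotypic mean of 1.51. IRF with MYC was higher in 6 of 6 arrays (median 0.93) although homotypic MYC arrays were all lower. Over 1-motif arrays 5 of these 6 were higher and none lower.

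FOXO with IRF was higher in 16 of 18 arrays and lower in 2 (median 1.11), by context controls 10 were higher and 4 lower (0.54), and over 1-motif arrays 8 were higher and 6 lower (0.11). The alternating array of FOXO, IRF, FOXO and IRF had 1.92 and 1.94 at 10 bp in context 1, against 0.06 and -0.02 at 5 bp (1.91, SE 0.10, adjusted p = 4.65e-11). FOXO followed by IRF in context 2 had 1.64 and 1.63 at 10 bp, against -0.14 and -0.14 at 5 bp (1.78, adjusted p = 5.65e-12), where the single FOXO and IRF motifs differed by -0.24 and -0.11. An array with IRF between FOXO motifs was lower in context 1, at -0.86, and higher in contexts 2 and 3, at 1.17 and 1.15. IRF with PU1 was higher in 5 of 6 arrays by TMM (median 1.06), in 3 by context controls (0.25), with none lower in either, and over 1-motif arrays 2 were higher and 2 lower (0.05). IRF with MEF2 was higher in 14 of 18 arrays and lower in none by TMM (0.74), higher in 8 and lower in 3 by context controls (0.22), and higher in 8 and lower in 6 over 1-motif arrays (0.19). CTCF with IRF stood at 0.18 in the median by TMM, with 1 of 6 higher and none lower, below the homotypic mean of its motifs in 6 of 6 arrays. Its direction turned with the controls: 1 was higher and 4 were lower both by context controls (-0.44) and over 1-motif arrays (-0.47). By context controls these counts are near the 20.1% higher and 61.5% lower of all 442 designs.

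Of 84 mixed arrays that hold NFKB, 27 were higher and 45 lower by TMM (median -0.31), 9 higher and 60 lower by context controls (-0.70), and 11 higher and 58 lower over 1-motif arrays (-0.70). Of all 442 designs 36.0% were higher and 41.2% lower by TMM, and 20.1% and 61.5% by context controls. Lower values were not particular to NFKB. By context controls the medians of mixed arrays holding FOXO, MYC and PU1 were -0.80, -0.85 and -0.78. Those for CTCF, MEF2, RUNX3 and IRF were -0.54, -0.56, -0.37 and 0.37. NFKB with MYC was lower in 9 of 9 arrays in all 3 comparisons, at medians of -1.15, -1.80 and -1.61. MYC between NFKB motifs had -0.29 and -0.09 at 10 bp in context 3, against 2.43 and 2.35 at 5 bp (-2.57, SE 0.09, adjusted p = 4.22e-13), the lowest of the mixed arrays, on 1176 and 1789 barcodes. In context 2 it had 0.18 and 0.21 at 10 bp, against 2.20 and 2.11 at 5 bp (-1.96, adjusted p = 3.48e-13). NFKB followed by MYC in context 1 had -0.47 and -0.63 at 10 bp, against 1.38 and 1.31 at 5 bp (-1.90, adjusted p = 1.32e-11).

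NFKB with IRF was higher in 7 of 9 arrays and lower in 1 by TMM (median 0.93), 5 higher and 2 lower by context controls (0.25), and 3 higher and 5 lower over 1-motif arrays (-0.32). NFKB followed by IRF in context 2 had 2.48 and 2.51 at 10 bp, against 0.66 and 0.60 at 5 bp (1.86, SE 0.07, adjusted p = 1.23e-12), and 2.31 over 1-motif arrays. Where 2 NFKB motifs flanked another motif, the median difference over contexts was -1.96 for MYC, -0.79 for RUNX3, -0.52 for PU1, -0.24 for CTCF and 0.04 for IRF, beside -2.42 for 3 NFKB motifs. With MYC, RUNX3, PU1 and IRF in the middle the median activities at 10 bp were 0.20, 1.22, 0.90 and 1.85, beside -0.17 for 3 NFKB motifs. At 5 bp they were 2.39, 1.95, 1.85 and 1.81, beside 2.41. With CTCF in the middle it was -2.02 at 10 bp and -1.63 at 5 bp. Among MYC, RUNX3, PU1, IRF and NFKB the middle motif thus went with a wider range of levels at 10 bp than at 5 bp. This did not hold with CTCF included, where medians ran from -2.02 to 1.85 at 10 bp and from -1.63 to 2.41 at 5 bp. These medians are over 3 contexts each and were not tested.

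FOXO with NFKB was lower in 13 of 18 arrays and higher in 2 (median -0.80; context controls 15 lower, none higher). With 3 FOXO and 2 NFKB motifs in turn, the array had 1.96 and 1.97 at 10 bp in context 1, against 3.96 and 3.86 at 5 bp (-1.95, SE 0.08, adjusted p = 2.16e-12). In context 2 it had 1.53 and 1.62 at 10 bp, against 3.33 and 3.28 at 5 bp (-1.73, adjusted p = 1.56e-11). These arrays stayed above 0 at both spacings, and they were the pair's 2 most active designs at 5 bp. MEF2 with NFKB was lower in 12 of 18 and higher in 3 by TMM (-0.48), and lower in 16 and higher in none by context controls (-0.98).

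CTCF with NFKB differed between contexts. NFKB motifs around CTCF in context 3 had 0.66 and 0.64 at 10 bp, against -1.64 and -1.62 at 5 bp (2.28, SE 0.07, adjusted p = 2.51e-13), on 1716 and 399 barcodes. The same array in context 1 had -3.20 and -3.12 at 10 bp, against -1.59 and -1.58 at 5 bp, a difference of -1.57. In context 2 it differed by -0.24. CTCF followed by NFKB in context 2 had -0.13 and -0.20 at 10 bp, against -1.84 and -2.08 at 5 bp (1.78, adjusted p = 6.84e-10), whereas NFKB followed by CTCF in that context had -2.51 and -2.57 at 10 bp, against -2.32 and -2.23 at 5 bp. By TMM 4 of the 12 arrays of this pair were higher and 3 lower (median 0.20), by context controls 2 higher and 5 lower (-0.17), and over 1-motif arrays 3 higher and 4 lower (-0.11).

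MEF2 with PU1 was lower with 10 bp spacers in most designs, by more than the homotypic arrays of its motifs. Of 18 arrays 15 were lower and none higher by TMM (median -0.99), and 17 were lower by context controls (-1.48) and over 1-motif arrays (-1.53). The homotypic mean for this pair was 0.12 in the median, and 16 of the 17 arrays with such a mean lay below it, by a median of -1.07, the largest departure of the 28 pairs. The alternating 4-motif array of MEF2 and PU1 had -0.83 and -0.73 at 10 bp in context 1, against 1.01 and 0.97 at 5 bp (-1.77, SE 0.12, adjusted p = 1.47e-09). In context 2 it had -1.28 and -1.16 at 10 bp, against 0.71 and 0.58 at 5 bp (-1.87, adjusted p = 3.24e-09), on 71 barcodes each. Median activity over the 18 arrays was -0.25 ± 0.02 at 10 bp and 0.63 ± 0.10 at 5 bp (SD, n = 2 mRNA libraries each), above the homotypic MEF2 and PU1 medians at both spacings.

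The remaining pairs among the 6 lowest were MYC with PU1 (median -0.59, 4 of 6 lower and 2 higher by TMM, 6 lower by context controls) and CTCF with FOXO (-0.50, 9 of 15 lower and none higher by TMM, 12 lower by context controls). For MEF2 and RUNX3 the direction turned with the controls: 8 of 18 were higher and 6 lower by TMM (median 0.10), and 3 were higher and 11 lower by context controls (-0.33) and over 1-motif arrays (-0.45). Of all 442 designs 36.0% were higher and 41.2% lower by TMM, and 20.1% and 61.5% by context controls. The pair's counts by context controls are thus near those of all designs. The alternating 5-motif array of MEF2 and RUNX3 in context 1 had -1.80 and -1.99 at 10 bp, against -0.10 and -0.04 at 5 bp (-1.82, adjusted p = 5.69e-08, 66 and 26 barcodes). The 4-motif array, which lacks the last MEF2 motif, had 0.34 and 0.33 at 10 bp, against -0.91 and -0.60 at 5 bp, a difference of 1.09. The alternating 4-motif array of MEF2 and CTCF in context 2 had -0.86 and -1.005 at 10 bp, against -3.04 and -2.77 at 5 bp (1.97, adjusted p = 4.05e-07), on 27 and 17 barcodes, and in contexts 1 and 3 it differed by -0.61 (adjusted p = 0.124) and -0.67 (adjusted p = 0.0014).

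With 4 motifs, the alternating form and the form with a single copy of the second motif (X, Y, X, X) differ in the last motif only. Of 12 pairs made in both forms, the median difference was higher in the alternating form in 5 and lower in 7. The pairs named here were chosen after their values were seen. For MEF2 and PU1 the median difference was -1.77 when alternating and -0.44 otherwise, and for MEF2 and NFKB it was -1.18 and 0.33. For FOXO and NFKB it was -1.01 and -0.36, and for FOXO and IRF it was 1.91 and 0.23. These contrasts rest on 3 contexts each and were not tested. In 2-motif arrays, 84 matched pairs differed only in which motif came first. Their differences correlated at r = 0.72 across pairs (as a description), with a median gap of 0.30 and a highest gap of 2.05, for CTCF and NFKB in context 2. In 6 of the 84 the orders passed in opposite directions: FOXO followed by NFKB in context 1 was higher (0.49), whereas NFKB followed by FOXO was lower (-0.86).

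The 3 contexts moved apart. By TMM 43 arrays were higher and 64 lower in context 1, 34 higher and 75 lower in context 2, and 68 higher and 38 lower in context 3, with medians of -0.22, -0.37 and 0.26. Against the controls of the same context the medians were -0.71, -0.21 and -0.91, and over 1-motif arrays -0.48, -0.04 and -0.94. The order of the contexts therefore turned with the choice of controls, whereas homotypic NFKB, MYC and FOXO medians were negative and RUNX3 medians positive in each context by all 3 measures. The IRF median was positive in each context by TMM and by context controls, and over 1-motif arrays it was 0.82, 1.85 and -0.21 in contexts 1 to 3.

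Some arrays lay on opposite sides of their plasmid DNA at the 2 spacings. Tested in each library against plasmid DNA, 45.7% of all 442 designs were above it and 48.6% below it at 10 bp, against 40.5% above and 49.5% below at 5 bp (edgeR, adjusted p under 0.05). Of the 415 arrays, 37 were above at 10 bp and below at 5 bp, and 30 were below at 10 bp and above at 5 bp, with a spacing difference that passed (9.73% and 7.01% of all 442 designs). Of the 37, 25 held IRF and 14 held RUNX3, motifs that 81 of the 415 arrays hold in each case. Of the 30, 11 paired MEF2 with PU1, as 18 of the 415 do. These numbers follow the scaling, and on the rd constructs they were 8 and 70.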

How the data were processed

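The deposited tables hold unnormalised counts of reads by barcode, per the file headers, for 2 mRNA libraries and 1 plasmid DNA library of each spacer, and name the design of most reads. How barcodes were counted is not given in the sources used. Another 9 value columns fit no label and stayed out, as did the integrated library. Reads of named barcodes with at least 5 plasmid reads were summed per design. The 442 shared designs were fitted over 6 libraries in 4 groups with edgeR 4.0.16 (quasi-likelihood test, TMM) in R 4.3.3, with and without offsets from the context controls. The difference over 1-motif arrays was tested with limma 3.58.1 on log2(reads + 0.5). DESeq2 1.42.0 was an alternative, beside other minimums, scalings and left-out replicates. With 1 plasmid library per spacer, plasmid DNA was taken to vary like mRNA. The mRNA replicates of a spacer differed by more than sampling noise (chi-square per degree of freedom 6.76 at 10 bp and 5.37 at 5 bp). PCR reads carry no molecular identifiers. On simulated counts with balanced known changes, the TMM fit was shifted towards lower values and passed more unchanged designs than its threshold allows. The other fits did not pass more than that. Named arrays were those with the largest difference per motif, all NFKB and IRF arrays, and the 8 highest and 8 lowest mixed arrays that passed in all 3 comparisons; others named for a contrast were chosen after their values were seen. The members, lists and tests were chosen with earlier results of these data known.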

Additional observations from a re-analysis of the deposited data

Results flagged for a closer look

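The arrays on opposite sides of their plasmid DNA at the 2 spacings were 37 above it at 10 bp and below it at 5 bp, and 30 below it at 10 bp and above it at 5 bp. Of all 442 designs, controls included, 43 (9.73%) and 31 (7.01%) did so. Controls without a motif neighbour were thus among them in both directions, so the trait is not particular to the arrays. As the arrays make up most of the 442 designs, the shares of the 442 cannot set arrays against controls. The arrays were flagged because the effect of the same comparison, mRNA against plasmid DNA, had opposite signs in the 2 libraries. The difference between the libraries also passed its own test (edgeR quasi-likelihood, Benjamini-Hochberg). Among the 37 were 7 homotypic IRF arrays, 5 homotypic RUNX3 arrays and 4 arrays each of IRF with FOXO, MYC, PU1 and RUNX3. Among the 30 were 11 arrays of MEF2 with PU1, 4 homotypic NFKB arrays, 4 arrays of MYC with NFKB and 3 of FOXO with RUNX3. Without 1 mRNA library in turn the numbers were 31 to 39 and 26 to 29.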

How the results depend on the processing

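The counts of higher and lower arrays stayed within 1.5 times of those reported under every alternative run except scaling on the rd constructs, which gave 61 higher and 289 lower by TMM's fit and 8 and 70 on opposite sides of plasmid DNA. DESeq2 gave 127 higher and 189 lower. Leaving out 1 mRNA library gave 138 to 146 higher and 170 to 185 lower by TMM, 75 to 87 and 247 to 264 by context controls, and 71 to 81 and 236 to 240 over 1-motif arrays. The replicate numbers of the 2 spacers share only a number (deviations correlated at r = 0.05), and with the replicate block 145 were higher and 180 lower. Scaling on rd turned the medians of MEF2 (-0.35), CTCF with IRF (-0.51), CTCF with MEF2 (-0.38), CTCF with NFKB (-0.49), MEF2 with RUNX3 (-0.59), NFKB with PU1 (-0.49), NFKB with RUNX3 (-0.47) and PU1 with RUNX3 (-0.10). It also took CTCF (-0.68) and MYC with RUNX3 (-0.69), whose medians lay within their replicate spread of 0, below 0, and by construction the rd constructs of contexts 1 (-0.12) and 3 (-0.0067). The CTCF median was also below 0 with DESeq2 (-0.088), at 20 barcodes per design (-0.049) and as a median over barcodes (-0.22). MYC with RUNX3 was also below 0 with DESeq2 (-0.098) and, by less, under other settings. At 20 plasmid reads per barcode CTCF with MYC (0.014) and MEF2 with RUNX3 (-0.045) turned, as did CTCF with PU1 (0.28, against a reported -0.08 within its replicate spread of 0), and as medians over barcodes CTCF with MYC (0.0099), CTCF with PU1 (0.040) and MEF2 with MYC (0.034); the cause was not tested. Over the alternatives to the TMM comparison the homotypic medians ranged from -3.08 to -2.33 for NFKB, -1.76 to -0.97 for MYC, -1.30 to -0.53 for FOXO, -0.77 to -0.02 for PU1, 1.20 to 1.92 for IRF and 0.45 to 1.28 for RUNX3, and crossed 0 for MEF2 (-0.35 to 0.40) and CTCF (-0.68 to 0.13). The array of 4 CTCF motifs in context 1 no longer passed when scaled on rd (0.51, adjusted p = 0.0632), nor did the rd construct of context 2 (0.12, adjusted p = 0.366). Few barcodes limit arrays of 4 and 5 MEF2 or PU1 motifs.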
